A study of Homo sapiens with 6 samples.

Results

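The interferon regulatory factors (IRFs) are transcription factors that share a tryptophan-rich DNA-binding domain. Here the 8 members IRF1, IRF2, IRF3, IRF4, IRF5, IRF7, IRF8 and IRF9 were taken by gene symbol from a count table of 37887 symbols, and each of the 8 had a row. A further human gene of this family was not analysed here. The RNA came from BT-549, an established cell line from a human breast tumour of the triple-negative type, in 3 control and 3 IRF1shRNA cultures. Control cells received 0.1% DMSO as the vehicle and IRF1shRNA cells received 500 ng/ml doxycycline (DOX), which switches on a hairpin RNA against IRF1. The control titles name a control shRNA, whereas the series description gives a single cell line with an inducible IRF1 hairpin. Under both readings DOX was given to no control, so the effects of DOX and of the hairpin cannot be told apart. If the titles are right, the groups are also separately transduced lines, and a difference between lines cannot be told apart either. The lentivirally transduced cells were selected with puromycin and nothing says that they were a single clone.

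IRFs bind the interferon-stimulated response element (ISRE) and related sites in the promoters of genes that respond to viruses and interferons. IRF3, IRF5 and IRF7 are activated by phosphorylation below nucleic acid sensors and switch on interferon genes. IRF9 is the DNA-binding subunit of ISGF3, the complex that carries the type I interferon signal to the nucleus. IRF1 is an inducible activator, IRF2 occupies many of the same sites and can repress them, and IRF4 and IRF8 are mainly factors of lymphoid and myeloid cells. Silencing of IRF1 was used in the study to determine which interferon genes depend on it, and the family is described below around the silenced gene.

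Sequences before the RefSeq starts of IRF1 and IRF9 are shown because each held a match to a searched motif. The 250 bases before the RefSeq start of 5 members (IRF1, IRF4, IRF5, IRF8 and IRF9) were searched on both strands for a form of the ISRE, the half-site GAAA repeated after a spacer of 2 bases, and for TTCNNNGAA, the gamma-activated sequence (GAS) bound by STAT dimers. IRF2, IRF3 and IRF7 had no entry. The IRF1 and IRF9 windows each held 1 GAS match, printed in capitals in the sequences below, which run 5′ to 3′ on the strand of the gene in build GRCh38.p14. The IRF1 window is chr5:132490774-132491023 on the minus strand and its match lies 124 to 116 bases before the start. The IRF9 window is chr14:24161015-24161264 on the plus strand, with the match 63 to 55 bases before the start. RefSeq and GENCODE 29, used for gene positions below, differ in where these genes start. By the GENCODE 29 bounds most of the IRF9 window, its match included, both IRF8 windows and all of the IRF5 windows lie inside the gene.
IRF1: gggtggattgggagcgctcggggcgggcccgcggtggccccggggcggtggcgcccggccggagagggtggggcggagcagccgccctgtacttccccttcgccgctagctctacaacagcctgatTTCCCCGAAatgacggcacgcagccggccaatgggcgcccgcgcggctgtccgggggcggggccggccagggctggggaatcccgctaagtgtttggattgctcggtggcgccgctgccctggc
IRF9: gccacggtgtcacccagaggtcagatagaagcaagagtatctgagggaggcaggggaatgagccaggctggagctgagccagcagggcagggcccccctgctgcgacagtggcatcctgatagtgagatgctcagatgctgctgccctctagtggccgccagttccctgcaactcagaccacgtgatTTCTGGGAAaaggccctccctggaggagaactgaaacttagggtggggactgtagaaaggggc
Other windows searched were 4 of IRF5, 2 of IRF8 and 1 of IRF4. The ISRE letters were in none of the windows of these 5 members, and the GAS letters were in none of those of IRF4, IRF5 and IRF8. Among 35116 RefSeq promoter windows of the same length, 6.57% held the GAS letters and 3.02% the ISRE letters. A match is a description of the sequence and does not show that a factor binds there.

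The libraries were deep. Total counts ranged from 55143808 in IRF1shRNA replicate 2 to 160436234 in IRF1shRNA replicate 3. Levels are given as CPM, the usual count of a gene relative to its library's total, with library sizes scaled by trimmed mean of M values (TMM). The smallest total taken as detected, 3 counts, corresponded to between 0.0182 and 0.0540 CPM per library. ESR1, the estrogen receptor gene, was at 0.0163 CPM in control cells (mean, n = 3), under the 3-count floor. It was at 0.101 CPM in IRF1shRNA cells, where each library was above each control. Counts were 4, 2 and 0 in control and 11, 8 and 12 in IRF1shRNA libraries, and ESR1 was not tested. Of the other breast cancer subtype markers, GATA3 and ERBB2 were called lower, GATA3 at 0.147 and 0.0296 CPM on average. PGR, at 0.244 and 0.141 CPM, and FOXA1, at 0.150 and 0.269 CPM, were not called. VIM, a mesenchymal intermediate filament gene, fell from 918 ± 28.6 to 625 ± 32.9 CPM (SD, n = 3 each). Of all genes tested, 26.4% were called lower and 24.1% higher. Of 6 mesenchymal markers 4 were called lower (VIM, FN1, CD44 and ZEB1) and 1 higher (SPARC). Their sum was 4708 to 4829 CPM in control and 4101 to 4346 CPM in IRF1shRNA libraries. Of 5 epithelial markers 4 were tested and 2 were lower, with KRT18 at 6.34 and 2.92 CPM and KRT8 at 1.52 and 0.441 CPM on average, and their sum was 8.43 to 8.93 CPM in control and 3.95 to 4.46 CPM in IRF1shRNA libraries. ERBB2 was detected at 50.8 ± 3.67 CPM in control cells and at 36.4 ± 1.60 CPM after silencing (SD, n = 3 each). Leukocytes are the cells in which IRF4 and IRF8 are prominent, and of 12 leukocyte markers 10 had a mean under 1 CPM over the 6 libraries. CD2 and MS4A1 had no count in any library. The 12 markers summed to 3.20 to 3.52 CPM in control and 4.03 to 4.77 CPM in IRF1shRNA libraries, and CD14, at 1.09 and 2.22 CPM on average, was the 1 marker called, as higher. The part of these marker shifts in the results below was not tested. Replicates were separate cultures of 1 cell line, so p-values measure the spread between cultures.

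IRF1, the silenced gene, was examined first. Its transcripts were counted at 45.3, 48.1 and 51.5 CPM in the control libraries and at 13.8, 14.9 and 14.6 CPM in the IRF1shRNA libraries. Every silenced culture was below every control, and the silenced cultures were close to one another. The log2 fold change was −1.74 ± 0.06 (SE, n = 3 each), which leaves 29.8% of the control level with a 95% interval of 27.2% to 32.7%. The adjusted p, from edgeR's quasi-likelihood test and Benjamini-Hochberg adjusted over the 18851 genes tested, was 4.53e-13. IRF1 RNA was therefore lowered but still readily detected. In bulk RNA, fewer cells with the transcript and less transcript per cell cannot be told apart, here and below. Of the genes tested, 229 had a lower log2 fold change than IRF1 itself.

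IRF7 and IRF9 fell by nearly as much as the silenced gene. IRF7 (chr11:612553-615999, minus strand, GENCODE 29 on GRCh38, as for the positions that follow), the factor that amplifies interferon alpha production, was at 7.06, 8.42 and 8.93 CPM in control and at 3.10, 2.77 and 3.03 CPM in IRF1shRNA libraries. These groups did not overlap, and the spread was wider among controls. The IRF7 log2 fold change was −1.45 ± 0.10 (SE), or 36.7% of control (95% interval 31.7% to 42.4%), and edgeR gave it an adjusted p of 1.87e-09. For IRF9 (chr14:24161053-24166565, plus strand) the control libraries gave 4.57, 4.72 and 4.79 CPM and the IRF1shRNA libraries 1.52, 1.55 and 2.06 CPM. All silenced cultures were below all controls, with IRF1shRNA replicate 3 the highest of them. IRF9 had a log2 fold change of −1.43 ± 0.12 (SE), or 37.0% of control (95% interval 31.0% to 44.2%), at an adjusted p of 2.60e-08 in edgeR's test. In the ranking of all log2 fold changes IRF7 and IRF9 stood at percentile 1.99 and 2.05, beside 1.21 for IRF1.

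IRF2 and IRF3 fell by far less. IRF2 (chr4:184387713-184474580, minus strand), which competes with IRF1 for its sites, was at 28.9, 29.7 and 32.5 CPM in control and at 23.3, 25.5 and 25.6 CPM in IRF1shRNA libraries. The groups were separate, but the gap between them was narrower than the range of the controls. The IRF2 log2 fold change was −0.29 ± 0.06 (SE), or 81.5% of control (95% interval 74.3% to 89.4%), and its adjusted p from edgeR was 0.000783. IRF3 (chr19:49659569-49665875, minus strand), the constitutive factor that waits in the cytoplasm for sensor signals, was at 71.4, 72.8 and 77.3 CPM in control and at 65.8, 61.5 and 62.5 CPM in IRF1shRNA libraries. It was the most abundant member by CPM in each library. Its log2 fold change was −0.22 ± 0.05 (SE), or 85.7% of control (95% interval 80.2% to 91.6%), and edgeR's adjusted p was 0.000505. IRF2 and IRF3 stood at percentile 25.0 and 29.8 of all log2 fold changes, well within the bulk of genes.

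IRF5 (chr7:128937612-128950035, plus strand), a factor of Toll-like receptor signalling, was scarce and no change was shown. It was at 0.730, 0.628 and 0.718 CPM in control and at 0.508, 0.468 and 0.772 CPM in IRF1shRNA libraries, on 26 to 127 counts per library. The ranges overlapped, with IRF1shRNA replicate 3 above every control. IRF5 had a log2 fold change of −0.21 ± 0.23 (SE), a 95% interval from 61.9% to 121% of control and an adjusted p of 0.494 in edgeR. Without IRF1shRNA replicate 3 the value was −0.49, with an adjusted p of 0.124 in the edgeR fit.

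IRF4 (chr6:391739-411447, plus strand) and IRF8 (chr16:85898803-85922609, plus strand) were at or near the limit of detection and did not pass the count filter. IRF4 had 4, 6 and 4 counts in control and 4, 5 and 14 counts in IRF1shRNA libraries, which correspond to 0.0268 to 0.0490 CPM and 0.0317 to 0.0901 CPM. The ranges overlapped, and in an edgeR fit without the filter the log2 fold change was 0.89 ± 0.91 (SE) at an adjusted p of 0.503. IRF8 had 0 counts in all 6 libraries, so its level lay under the 3-count floor of each. The floor covers counting error only. At these depths no difference in IRF4 was detected, and IRF8 had no counts to compare.

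**Figure D1:**
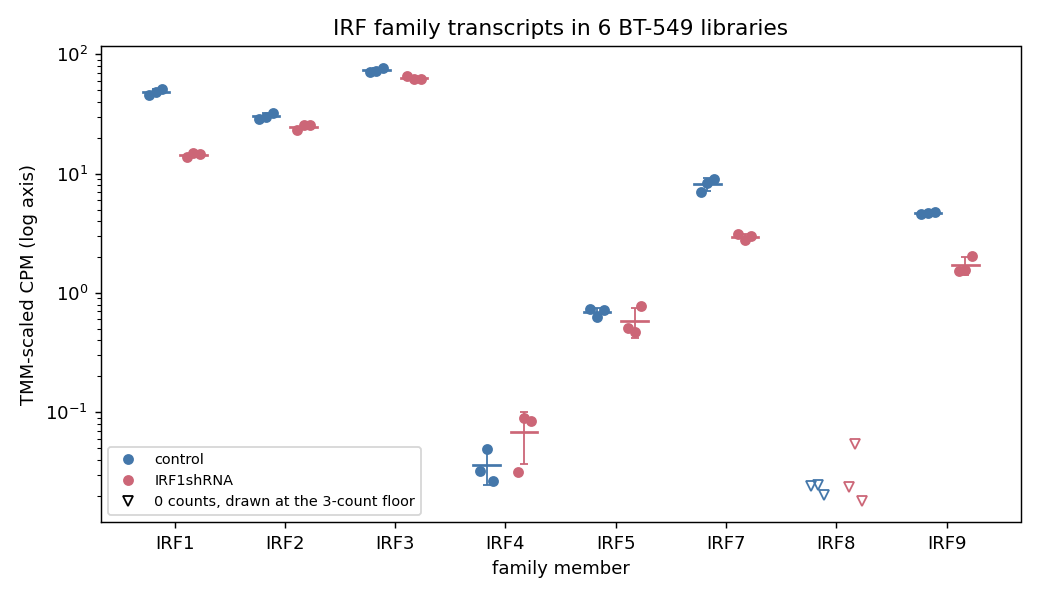
Each point is 1 library and gives the TMM-scaled CPM of a family member on a log axis, with control in blue and IRF1shRNA in red. Horizontal lines are group means with SD bars (n = 3), and open triangles mark IRF8, which had 0 counts, at the 3-count floor. IRF1, IRF7 and IRF9 show the widest gaps between groups, IRF2 and IRF3 narrow gaps, and IRF5 and IRF4 overlap.

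Of the 8 members, 6 could be tested, of which 5 were lower with an adjusted p under 0.05 in edgeR's test and 0 were higher. All 6 log2 fold changes were negative, and DESeq2 also called 5 lower and 0 higher. The same 5 had every IRF1shRNA library below every control. Over all genes tested, 26.4% were called lower and 24.1% higher, while 29.5% had every silenced library below and 27.3% every silenced library above the controls. One of the 5 is the gene that the hairpin was aimed at, so 4 of the other 5 tested members were called lower. None of the 15 alternative settings of the fit changed the direction or the call of a tested member, with IRF5 not tested in 1 of them. Across them IRF1 ranged from −1.79 to −1.69, IRF7 from −1.54 to −1.37 and IRF9 from −1.67 to −1.34 on the log2 scale. IRF2 ranged from −0.33 to −0.24 and IRF3 from −0.25 to −0.17. The ranges of the first 3 thus lay apart from those of IRF2 and IRF3.

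**Figure D2:**
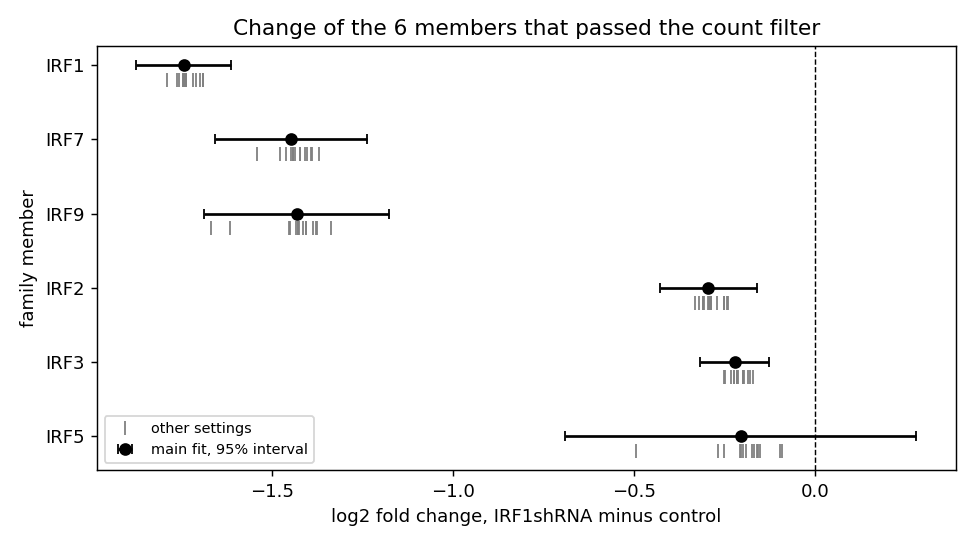
Black points give the log2 fold change of each tested member, IRF1shRNA minus control, with its 95% interval from edgeR's quasi-likelihood fit. Grey ticks are the values under the other settings. IRF1, IRF7 and IRF9 lie between −1.74 and −1.43, IRF2 and IRF3 at −0.29 and −0.22, and the IRF5 interval crosses 0.

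Counts of members were then set against those of IRF1 within each library, a measure that needs no scaling between libraries. Control cells had 1.57, 1.62 and 1.59 IRF1 counts per IRF2 count, and IRF1shRNA cells had 0.592, 0.587 and 0.571. The activator was therefore counted more often than its competitor in each control and less often in each silenced culture. The denominator is the silenced gene, so a ratio to IRF1 rises for any gene that fell by less than IRF1. IRF1 had a log2 fold change of −1.74, beside a median of −0.0024 over all genes tested. The log2 ratio of counts to IRF1 rose by 1.45 for IRF2, by 1.52 for IRF3 and by 1.46 for IRF5, with no overlap between groups. For IRF7 it moved from −2.57 ± 0.09 to −2.28 ± 0.14 and for IRF9 from −3.36 ± 0.06 to −3.09 ± 0.23 (SD, n = 3 each). Those shifts of 0.29 and 0.27 were small beside the loss of IRF1 itself, although every silenced library was above every control. A design of 3 against 3 cannot give an exact permutation p below 0.1, and no p is given for these ratios.

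**Figure D3:**
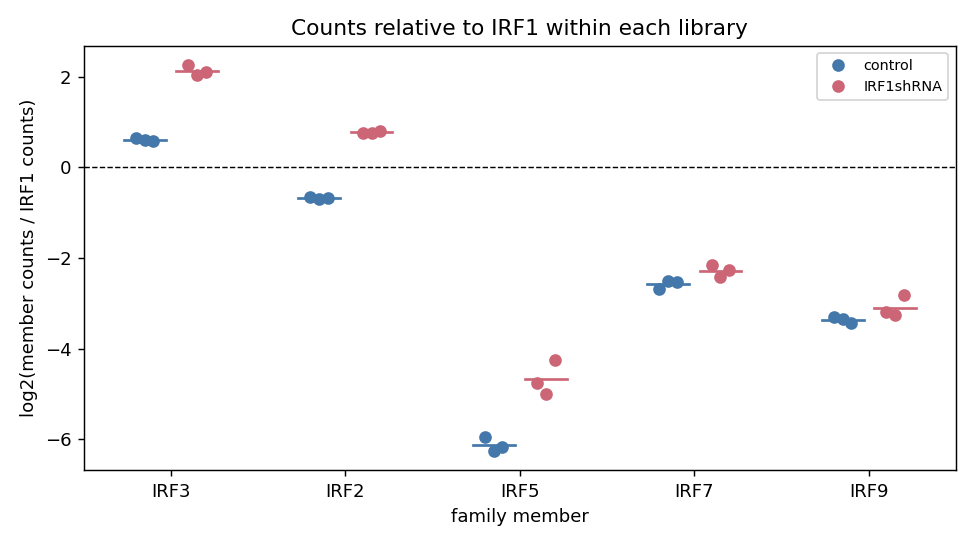
Points give the log2 ratio of a member's counts to IRF1 counts in each of 3 control (blue) and 3 IRF1shRNA (red) libraries, with lines at the group means. The ratios of IRF3, IRF2 and IRF5 rise by 1.45 to 1.52 after silencing, whereas those of IRF7 and IRF9 rise by 0.29 and 0.27. A ratio rises for any gene that fell by less than IRF1.

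The make-up of the family was assessed on a per-length scale, CPM per kilobase of the gene's exons, since longer transcripts collect more counts. In control cells the order of levels was IRF3 (19.5 ± 0.813), IRF2 (9.74 ± 0.602), IRF1 (6.19 ± 0.402), IRF7 (3.10 ± 0.369), IRF9 (1.24 ± 0.0296), IRF5 (0.158 ± 0.0127), IRF4 (0.00612 ± 0.00195) and IRF8 at 0 (CPM per kb, SD, n = 3). The ranges of neighbours in this order did not overlap. The same order held in IRF1shRNA cells, again with separate ranges. It depended on the length used, since IRF1 has long exon models. With the length of the principal transcript, IRF1 at 13.5 ± 0.877 and IRF2 at 13.2 ± 0.815 CPM per kb did not differ beyond their spread in control cells. After silencing, IRF1 at 4.03 ± 0.168 was below IRF2 at 10.8 ± 0.565 CPM per kb on that scale.

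The summed level of the members dropped from 39.9 ± 2.17 to 28.2 ± 0.279 CPM per kb of exons, or 70.7% of control, with separate groups. IRF1 made up 15.3%, 15.6% and 15.6% of that sum in control and 6.25%, 6.87% and 6.59% in IRF1shRNA libraries. The share of IRF7 was 7.08%, 8.11% and 8.05% in control and 4.17%, 3.79% and 4.05% in IRF1shRNA libraries. That of IRF9 went from 3.10% ± 0.0997 to 1.60% ± 0.273 (SD, n = 3 each). IRF3 took 48.8% ± 0.691 of the sum in control and 59.1% ± 1.90 in silenced cells, and IRF2 24.4% ± 0.270 and 28.2% ± 1.55. Groups were separate for these 5 members, with an exact permutation p of 0.1 for each (two-sided), the smallest that 3 against 3 allows. Shares sum to the whole, so the larger shares of IRF3 and IRF2 came with lower levels of both. Under the principal transcript length the IRF1 share changed by −10.3 percentage points and that of IRF3 by 11.7.

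**Figure D4:**
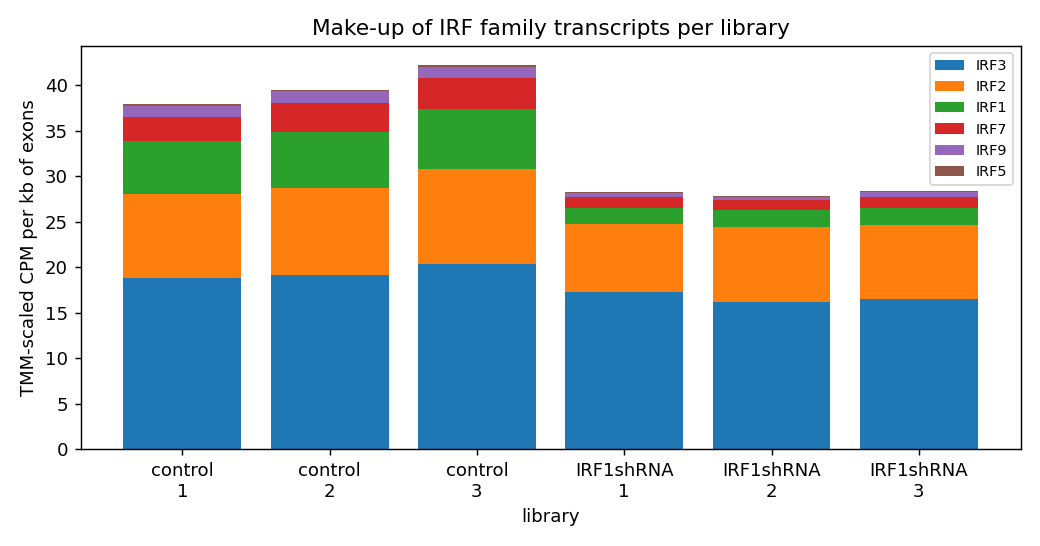
Stacked bars give the CPM per kilobase of exons of each member in the 6 libraries, with IRF4 and IRF8 too low to draw. IRF3 and IRF2 form most of each bar, and the IRF1, IRF7 and IRF9 segments are thinner in the IRF1shRNA libraries, whose bars reach 28.3, 27.9 and 28.4 against 38.0, 39.5 and 42.2 CPM per kb in control.

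Genes that share a locus with a member were examined, because the use of strand in counting is not given in the sources used here. In GENCODE 29 (GRCh38) IRF1 lies at chr5:132481609-132490798 on the minus strand, and exons of C5orf56 on the opposite strand cover 1716 of its 7799 exon bases. C5orf56 fell from 3.92 ± 0.198 to 1.69 ± 0.141 CPM (SD, n = 3 each), a log2 change of −1.21 ± 0.11 (SE) that edgeR gave an adjusted p of 7.79e-08. Without strand, reads of IRF1 and C5orf56 cannot be told apart where they overlap. IRF3 shares 19.3% of its exon bases with BCL2L12 on the opposite strand, a gene of the BCL2 family. BCL2L12 rose by 0.47 ± 0.05 (SE) on the log2 scale, while IRF3 fell. IRF7 has neighbours close by on each side but no shared exon, and PHRF1, 330 bases away, had a log2 fold change of 0.10 ± 0.05 (SE) at an adjusted p of 0.137 in edgeR's test.

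The IRF1 locus is also covered by AC116366.3, a model on the opposite strand to which no row was matched and which shares 469 exon bases, or 6.0%. For IRF9 the shared stretch was longer. A gene model of GENCODE 29 on the same strand, AL136295.5, shares 1838 exon bases with IRF9, or 48.4% of its exons, and no row was matched to it. Whether reads in such shared exons were counted for IRF9 was not tested, so its level relative to the other members is uncertain. The same treatment applied to all 6 libraries. REC8, 5287 bases beyond IRF9, fell by 0.87 ± 0.09 (SE) on the log2 scale, and RNF31, 391 bases away on the other side, had a value of −0.25 ± 0.18 with overlapping groups. Beside IRF5, TNPO3 fell by 0.43 ± 0.04 and KCP, on the other side, rose by 0.56 ± 0.22. Beside IRF4, DUSP22 rose by 0.90 ± 0.08 and EXOC2 fell by 0.16 ± 0.05. SLC22A5, beside IRF1, fell by 0.23 ± 0.07, at an adjusted p of 0.0152 in edgeR's test. Not called were SCAF1 and PRMT1 beside IRF3, LINC02362 and LINC02427 beside IRF2, and COX4I1 beside IRF8. Their adjusted p in edgeR's test ran from 0.0519 to 0.7935. Over all genes tested, 26.4% were called lower and 24.1% higher.

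The genes whose pattern was most like that of IRF1 were sought by Pearson's r of log2 CPM over the 6 libraries, among the 13065 tested genes that averaged 1 CPM or more. The 5 closest were PLSCR1, HERC6, IFIT5, OAS2 and PARP14, with r of 0.9998 for each. Their log2 fold changes were −1.98, −3.85, −2.75, −5.68 and −2.92, so a high r did not come with a change of the same size. In all, 763 genes had r above 0.99. Among the members, r with IRF1 was 0.991 for IRF7, 0.983 for IRF9, 0.935 for IRF2 and 0.932 for IRF3. Their ranks among the genes compared were 657, 1239, 2895 and 2955. Both groups enter r, so a gene that differs between the groups in the direction of IRF1 has a high r.

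Genes that act around the IRFs were then counted by role, from lists chosen with earlier results of these data known. Kinases, adaptors and sensors upstream of the IRFs numbered 18, of which 17 could be tested, with 10 lower and 1 higher at an adjusted p under 0.05 in edgeR's test. These are 58.8% and 5.88% of those tested, beside 26.4% and 24.1% of all genes. Their median log2 fold change was −0.29, beside −0.0024 over all genes. The RNA sensors IFIH1 (MDA5) and RIGI, listed as DDX58, had log2 fold changes of −3.47 ± 0.12 and −2.42 ± 0.12 (SE), and the Toll-like receptor adaptor MYD88 fell by 1.18 ± 0.07. TRAF3, an adaptor towards the kinases that phosphorylate IRF3, rose by 0.18 ± 0.04. Of those kinases, IKBKE fell by 0.62 ± 0.09, and TBK1 was at 69.4 ± 4.01 CPM in control cells and at 69.2 ± 3.37 CPM in silenced cells (SD, n = 3 each), with an adjusted p of 0.966 in edgeR's test. This kinase pair was picked for its role, after the values were seen.

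DNA-binding partners and cofactors of the IRFs numbered 16, of which 13 were tested, 8 were lower and 2 were higher. This is 61.5% and 15.4% of those tested, beside 26.4% and 24.1% of all genes, with a median log2 fold change of −0.35. STAT2, which joins IRF9 in ISGF3, was at 59.4, 63.9 and 69.1 CPM in control and at 30.4, 31.8 and 33.6 CPM in IRF1shRNA libraries. The groups were far apart, and STAT2 fell by 1.01 ± 0.06 (SE) on the log2 scale. IRF2BP2, a corepressor that binds IRF2, fell by 0.49 ± 0.04, whereas its relative IRF2BP1 rose by 0.21 ± 0.06 with overlapping groups. The 2 calls upward in this list, IRF2BP1 and KAT2B, were both lost without control replicate 2. BATF, a partner of IRF4 and IRF8 in lymphocytes, had no count in any library, and the lymphoid and myeloid partners SPI1 and SPIB had at most 6 counts in a library. Its relative BATF3 was detected, at 3.35 ± 0.309 CPM in control and 1.23 ± 0.149 CPM in silenced cells (SD, n = 3 each). BATF3 fell by 1.47 ± 0.13 (SE) on the log2 scale, and the scarcer BATF2 fell by 2.46 ± 0.36.

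Regulators that restrain or degrade IRFs numbered 12, all tested, with 6 lower (50%) and 2 higher (16.7%) and a median log2 fold change of −0.22. The shares over all genes were 26.4% and 24.1%. TRIM21, a ubiquitin ligase that targets IRF family proteins, fell by 2.12 ± 0.08 (SE). USP18, the protease that removes ISG15 and dampens interferon receptor signalling, fell from 12.4 ± 2.46 to 1.29 ± 0.204 CPM (SD, n = 3 each), and RBCK1, a ubiquitin ligase component, fell by 0.79 ± 0.05 on the log2 scale. FBXW7, a substrate receptor of a ubiquitin ligase, rose by 0.40 ± 0.06.

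RNA of the interferon ligands, some of which IRF3 and IRF7 switch on, was scarce. Of 21 genes, 9 had no count in any library, 20 had a mean under 1 CPM and 2 passed the count filter, with 0 called in either direction by edgeR. Of those 2, 0 had an unadjusted p under 0.05 in the edgeR fit, and DESeq2 called 0. The other tested ligand, IFNA1, which has near-identical relatives, was at 0.0406, 0.0979 and 0.101 CPM in control and at 0.222, 0.126 and 0.134 CPM in IRF1shRNA libraries, on 5 to 28 counts. Its groups did not overlap, and the log2 fold change was 1.02 ± 0.49 (SE) at an adjusted p of 0.0951 in edgeR. IFNE, the one ligand above 1 CPM, was at 1.25 ± 0.186 CPM in control cells and at 1.29 ± 0.0545 CPM in silenced cells (SD, n = 3 each). IFNB1, a classical target of IRF3 and named here for that role, had 18, 10 and 8 counts in control and 4, 2 and 6 counts in IRF1shRNA libraries, and it did not pass the filter.

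Of 9 interferon receptor and JAK kinase genes, 8 were tested, 1 was lower and 2 were higher, and the median log2 fold change was 0.06. These are 12.5% and 25.0% of those tested, beside 26.4% and 24.1% of all genes, so the share higher was near that over all genes. IFNGR2, a chain of the interferon gamma receptor, fell by 0.45 ± 0.07 (SE), while the other chain, IFNGR1, rose by 0.21 ± 0.04. JAK1, the kinase shared by both receptor types, rose by 0.15 ± 0.05.

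Textbook targets of IRF1 were lower almost throughout. Of 26 genes, 22 were tested, of which 20 (90.9%) were lower and 1 (4.55%) higher in edgeR's test, and the median log2 fold change was −1.34. Over all genes tested, the shares were 26.4% lower and 24.1% higher. GBP1, an interferon-induced GTPase, fell from 55.2 ± 5.15 to 5.83 ± 0.464 CPM (SD, n = 3 each). The immunoproteasome subunit PSMB9 fell by 3.84 ± 0.13 (SE) and the peptide transporter TAP1 by 2.13 ± 0.08 on the log2 scale. IL18BP, which encodes the interleukin 18 binding protein, rose by 0.20 ± 0.08, at an adjusted p of 0.0449 in edgeR's test that did not hold without control replicate 1 or 2, or without IRF1shRNA replicate 1 or 3. The list was drawn up knowing that interferon genes fell in these samples, so the count is not independent evidence of direction.

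**Figure D5:**
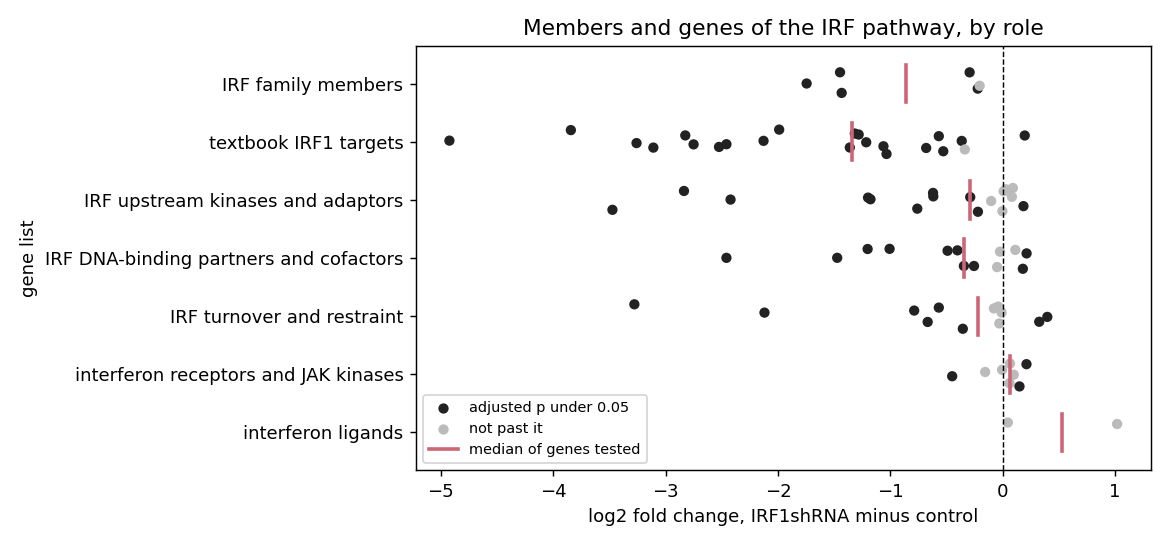
Each point is a tested gene placed by its log2 fold change, IRF1shRNA minus control, with the 6 tested IRF members in the top row and the lists by role below. Dark points had an adjusted p under 0.05 and red lines are medians. The textbook targets have their median at −1.34, receptors and JAK kinases at 0.06, and the ligand row holds 2 genes.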

How the data were processed

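RNA from 3 control and 3 IRF1shRNA cultures of BT-549 was sequenced from stranded mRNA libraries. The authors deposited 1 table of raw read counts per gene symbol. The submitters' processing notes name CASAVA 1.8.2, STAR 2.7.9a, featureCounts, DESeq2 1.24.0 and GRCh38.p7. Annotation release and strand setting are not given in the sources used here. Of small counts from 2 to 11, 72.1% to 75.2% were even, so mates may have been counted separately, and counts were also halved as an alternative. Table columns matching no sample numbered 0.

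Symbols with too few counts were removed (filterByExpr, minimum count 10), which left 18851 of 37887, and 10041 had no count. Groups were compared with edgeR 4.0.16 (TMM, quasi-likelihood F-test, Benjamini-Hochberg over all genes tested, threshold 0.05) under R 4.3.3. DESeq2 1.42.0, other scalings and filters, thinned libraries, a replicate block and the removal of each library were alternatives. The code was tested on simulated data.

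Per-length levels are CPM divided by the exon union length in GENCODE 29, and promoters are from RefSeq. The principal-transcript length was added after seeing the data. Members and lists were chosen with earlier results of these data known. The text names the 3 genes of each list with the smallest adjusted p among those averaging 1 CPM or more, the called gene with the largest change against the direction of most of the list, the 5 genes most like IRF1, and genes beside a member. Neighbours were taken from GENCODE 29 in place of RefSeq order. IKBKE, TBK1, KAT2B, IFNA1, IFNB1, BATF2, BATF3 and the scarce partners were named outside this rule. One gene that the rule picks is not reported here.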

Additional observations from a re-analysis of the deposited data

How the results depend on the processing

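No alternative turned the direction of a fitted member or changed whether it passed the test. The replicate block left IRF1 at −1.74, IRF7 at −1.44 and IRF9 at −1.45 (log2), with 4972 genes lower and 4490 higher against 4971 and 4548, and changed no member's call. The deviations of same-numbered libraries from their group means correlated at −0.00724 to 0.0250, and 3 of 6 correlated best with their own number. With so few libraries these values cannot decide whether same-numbered libraries shared a batch. IRF5 ranged from −0.49 to −0.091 and was not tested under the filter of 1 CPM. IRF4 did not pass the count filter and is given from the fit without it, and IRF8 had 0 counts.

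Counts of genes called higher moved in the short lists. Upstream kinases and adaptors had 3 higher, against 1, under upper-quartile scaling, library size only and the 1 CPM filter. Receptors and JAK kinases had 4, against 2, under library size only. Textbook IRF1 targets had 0, against 1, without a filter, with the replicate block and in thinned libraries, and 0 to 1 when libraries were left out. Partners and cofactors had 0 (without control replicate 2) to 2, and 1 without IRF1shRNA replicate 1 or 2. The cause was not tested. The split of all calls was 4309 lower and 5267 higher under library size only, and 4413 and 5171 under upper-quartile scaling, which moved the median log2 fold change of all genes to 0.049 and 0.041.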
